A study of Mus musculus with 6 samples.

Results

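Hox genes encode the homeodomain transcription factors that give cells along the body axis their positional identity. They were described here as transcripts of isolated mouse collecting duct cells. The members are all protein-coding mouse genes with a symbol of Hoxa, Hoxb, Hoxc or Hoxd followed by a number, which gave 39 genes among the 24938 genes that could be summed from the deposited counts. The 39 genes were counted through 50 transcript IDs, and 27 of them passed the filter on low counts and entered the test between the diets.

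Total RNA came from kidney collecting duct cells of the inbred mouse strain C57BL/6J, males only. The low-NaCl mice ate a diet of 0.01 to 0.02% sodium, and the high-NaCl mice a diet of 2.4% sodium, both for 5 days. Each diet had 3 libraries. The labels give neither the age of the mice nor the way the cells were isolated. Nor do they tie libraries to separate animals, so the p-values reflect library-to-library spread that could be technical.

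In mammals the Hox genes lie in 4 clusters, and genes of equal number in different clusters, called a paralog group, descend from a common ancestor. The genes are ordered along a cluster as they are used along the body: low numbers act toward the head, in hindbrain and neck, and high numbers toward the tail, a relation called collinearity. Adult cells often keep part of the Hox pattern of the embryonic tissue from which they arose, and the balance of Polycomb repression and Trithorax activation maintains it. The collecting duct arises from the ureteric bud, a branch of the nephric duct. Regulatory sequence of Hoxb7 is widely used to drive transgenes in that bud and its descendants, and the paralog group 11 genes are needed in the surrounding mesenchyme for the mouse kidney to form. The comparison asks whether a sodium intake that raises aldosterone or one that lowers it goes with another Hox pattern in these cells.

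Short regulatory RNAs are embedded in the clusters, and several pair with Hox transcripts. Mature sequences are shown because members of the miR-196 and miR-10 families share a seed within the family, and because the hairpin loci of miR-196a, in different clusters, differed widely in read counts. They are from RefSeq (GRCm38.p6), 5′ to 3′, with the seed, bases 2 to 8, in capitals.
mmu-miR-196b-5p (Mir196b, beside Hoxa9, chr6:52230129-52230150, minus strand): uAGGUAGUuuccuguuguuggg
mmu-miR-196a-5p (Mir196a-1, beside Hoxb9, chr11:96265187-96265208, plus strand; Mir196a-2, beside Hoxc10, chr15:102973365-102973386, plus strand): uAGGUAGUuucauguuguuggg
mmu-miR-10a-5p (Mir10a, beside Hoxb4, chr11:96317186-96317208, plus strand): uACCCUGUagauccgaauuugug
mmu-miR-10b-5p (Mir10b, beside Hoxd4, chr2:74726074-74726096, plus strand): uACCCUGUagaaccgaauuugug
The miR-196 sequences share the seed AGGUAGU, and the miR-10 sequences share ACCCUGU. Mouse miR-196 directs cleavage of the Hoxb8 messenger RNA.

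The promoters of 22 of the 39 genes were matched in RefSeq, as 24 windows of 300 bases from 250 before to 50 after the start. A pair from the same cluster is shown because the genes lie at the opposite ends of the measured levels: Hoxd9, the highest Hox gene, and Hoxd13, which was at 0 counts in 5 of 6 libraries. Capitals mark each CG dinucleotide, which reads CG on both strands.
Hoxd9 promoter (GRCm38.p6, chr2:74697513-74697812, plus strand): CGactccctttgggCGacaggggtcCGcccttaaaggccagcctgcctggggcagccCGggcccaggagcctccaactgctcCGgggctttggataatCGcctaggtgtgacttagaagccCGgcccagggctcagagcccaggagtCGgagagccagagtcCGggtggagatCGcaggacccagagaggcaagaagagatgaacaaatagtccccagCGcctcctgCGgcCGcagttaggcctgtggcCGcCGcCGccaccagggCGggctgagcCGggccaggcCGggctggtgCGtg
Hoxd13 promoter (GRCm38.p6, chr2:74667975-74668274, plus strand): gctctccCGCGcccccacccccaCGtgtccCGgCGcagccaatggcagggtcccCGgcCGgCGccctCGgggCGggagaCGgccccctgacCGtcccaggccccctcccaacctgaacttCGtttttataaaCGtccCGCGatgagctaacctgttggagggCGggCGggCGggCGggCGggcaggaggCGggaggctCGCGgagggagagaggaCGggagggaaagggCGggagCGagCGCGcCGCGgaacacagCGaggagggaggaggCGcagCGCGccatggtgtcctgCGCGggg
The Hoxd9 window holds 20 CG, a number reached by 26.5% of all 32851 promoter windows of that length in RefSeq. The Hoxd13 window holds 37, reached by 5.58% of them, so in this pair the gene with almost no counts has more CG. Other genes with few or no counts over all their exonic bases went both ways. Hoxa13 holds 45 CG, while Hoxd12 and Hoxb1 hold 13 and 10, fewer than Hoxd9. The median was 14.5 CG over the 24 Hox windows (range 4 to 45) and 7 over all windows. TATAAA, searched on both strands, was in 4 of the 24 Hox windows (16.7%), Hoxd13 among them, and in 13.6% of all windows.

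Counts per gene were turned into CPM (counts-per-million), scaled between libraries by TMM factors. For levels between genes they were divided by the countable length, the exonic bases that belong to a single transcript ID, since reads over several IDs were not counted. A level below is CPM per countable kilobase (CPM/kb), and a list of values gives libraries 1, 2 and 3 of each diet in that order.

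The libraries held transcripts of all 4 clusters, from paralog group 1 to group 11, with a few genes far above the rest. In group 1 the only tested gene was Hoxd1, with 10 to 18 reads per library. Hoxd9 and Hoxb6 led at 188 ± 40.9 and 158 ± 17.5 CPM/kb (SD, n = 6 libraries of both diets), followed by Hoxb2 (63.2 ± 5.28), Hoxb7 (48.2 ± 7.45) and Hoxd10 (45.0 ± 6.00). These 5 genes made up 75.7 ± 2.34% of the summed level of the 27 tested Hox genes. Hoxd9 stood above 95.4% and Hoxb6 above 94.4% of all 10567 tested genes by level, Hoxb2 above 87.9%, Hoxb7 above 84.7% and Hoxd10 above 84.0%. At the other end Hoxd1, at 0.185 ± 0.0475 CPM/kb, stood above 5.78%. Among the 27, Hoxd9 was above Hoxb6 in 5 of 6 libraries, and Hoxb6 above Hoxb2 and Hoxb2 above Hoxb7 in 6 of 6. Hoxb7 and Hoxd10, whose means differ by less than their SDs, kept their order in 4 of 6 libraries, and Hoxb9 and Hoxb5 (15.6 ± 1.84 and 15.3 ± 1.58 CPM/kb) in 3 of 6.

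**Figure D1:**
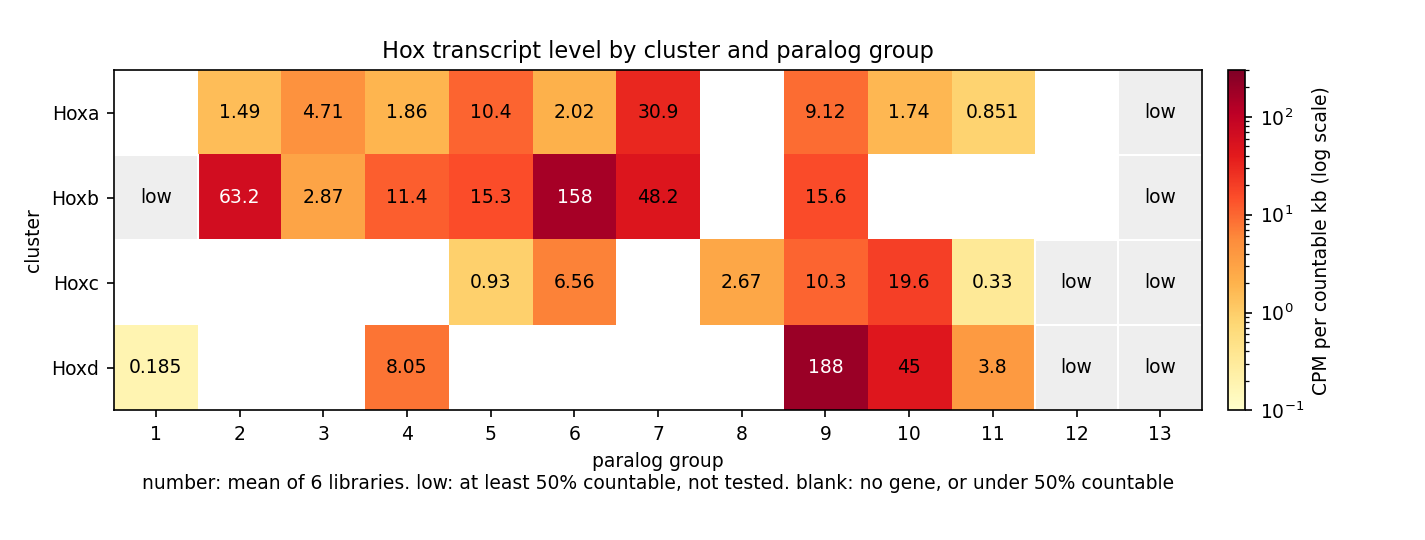
Mean level of each Hox gene over the 6 libraries in CPM per countable kilobase (colour on a log scale, number in the box), by cluster (rows) and paralog group (columns). The Hoxb row is filled from group 2 to group 9 apart from Hoxb8, the Hoxd row peaks at Hoxd9 with 188, and no gene of groups 12 and 13 passed the count filter.

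Along the clusters, levels were highest in the middle and at group 9 and dropped off beyond group 10. Group 9 gave 33.5 ± 3.65% of the summed Hox level (SD, n = 6), mainly through Hoxd9, and group 6 gave 25.1 ± 1.19%, mainly through Hoxb6. Group 7 followed with 12 ± 1.70%, group 10 with 10.1 ± 1.38% and group 2 with 9.76 ± 0.443%. The place of group 7 above groups 10 and 2 rests on a 3′ ID of Hoxa7 described below. With that ID Hoxa7 was at 30.9 CPM/kb, and its spliced ID alone was at 3.35. Group 2 is mainly Hoxb2, with 58.6% of its counted bases opposite noncoding exons. The other groups gave 4.01% (group 5), 3.22% (group 4), 1.15% (group 3), 0.759% (group 11), 0.402% (group 8) and 0.0277% (group 1). The group 8 share is that of Hoxc8 alone, since Hoxb8 and Hoxd8 have 13 and 3 countable bases, and the group 3 share lacks Hoxd3, which has none, so these shares leave out genes that could not be measured. The group 1 share is that of Hoxd1. In each cluster with a tested group 11 gene, its mean level was below those of the group 10 and group 9 neighbours: Hoxa11 at 0.851, Hoxc11 at 0.330 and Hoxd11 at 3.80 CPM/kb, against Hoxa10 at 1.74, Hoxc10 at 19.6 and Hoxd10 at 45.0 CPM/kb. In low-NaCl library 1 Hoxa11 (0.925 CPM/kb) was above Hoxa10 (0.845). By cluster, Hoxb gave 47.5 ± 2.28% of the summed level, Hoxd 36.8 ± 3.09%, Hoxa 9.57 ± 1.09% and Hoxc 6.11 ± 0.684%. By CPM with no division by length the order of the first pair turned, with 43.6% from Hoxd and 39.3% from Hoxb. Of the Hoxa share, the Hoxa7 3′ ID described below carried much: without the single-exon IDs of Hoxa7 and Hoxa9 it was 5.49%.

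No Hox gene passed the test between the diets (0 of 27 at an adjusted p below 0.05 in edgeR's quasi-likelihood test, against 3.46% of all 10567 tested genes), and 2 had an unadjusted p below 0.05. In 4 of the 27 genes the 3 libraries of one diet lay apart from the 3 of the other, against 23.9% of all tested genes. These were Hoxa11, Hoxb5, Hoxc8 and Hoxc11. The levels of every tested gene follow by cluster, from group 2 or 1 upward.

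The Hoxa genes described here lie on chromosome 6, minus strand, from Hoxa2 (52162417 to 52164831) to Hoxa13 (52257694 to 52260880, build mm10, GENCODE gene spans). Hoxa2, which patterns the second branchial arch, had levels of 1.09, 1.79 and 1.64 CPM/kb in low-NaCl libraries and 1.47, 1.55 and 1.42 in high-NaCl libraries. Levels of Hoxa3, needed for thymus and parathyroid, were 4.08, 4.69 and 5.54 CPM/kb on low NaCl, against 3.93, 5.06 and 4.95 on high NaCl. Hoxa4, a gene of neck vertebrae, was at 2, 1.25 and 1.91 CPM/kb in the low-NaCl and 1.85, 2.03 and 2.09 in the high-NaCl libraries. The diets overlapped in all 3 genes. Exons of noncoding genes lie opposite counted bases of Hoxa3 (Hoxaas2 and Gm29430, 20% for the gene with the larger overlap) and of Hoxa4 (Gm29430, 15.6%). Counting ignored strand, so reads of both strands cannot be told apart there. Hoxa5, a gene of lung development, measured 9.49, 11.5 and 7.86 CPM/kb on low NaCl and 10.9, 10.4 and 12.3 on high NaCl. Hoxa6 measured 2.17, 2.21 and 1.75 CPM/kb on low NaCl and 1.89, 1.64 and 2.44 on high NaCl. These also overlapped between the diets.

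Further along the cluster, Hoxa7 had the highest Hoxa level, which rests on a single-exon 3′ ID described below, at 28.3, 32.8 and 28.4 CPM/kb in low-NaCl libraries and 30.4, 33.0 and 32.7 in high-NaCl libraries. Its spliced ID alone averaged 3.35 CPM/kb, below Hoxa5, Hoxa9 and Hoxa3. Hoxa9, known with Hoxa7 as a gene of blood stem cells and leukaemia, had 8.35, 10.7 and 10.1 CPM/kb on low NaCl and 7.15, 11.5 and 6.92 on high NaCl. Hoxa10, known for its role in the uterus, had 0.845, 2.18 and 2.39 CPM/kb on low NaCl and 1.11, 2.02 and 1.91 on high NaCl. In Hoxa10 library 1 was the lowest of both diets, and in all 3 genes the diets overlapped. Hoxa11, a gene of kidney induction in the mouse, had 0.925, 1.29 and 1.27 CPM/kb on low NaCl, against 0.159, 0.884 and 0.581 on high NaCl. Here all low-NaCl libraries were above all high-NaCl libraries, and high-NaCl library 1 was the lowest by far.

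The Hoxb cluster lies on chromosome 11, plus strand, from Hoxb13 (96194316 to 96197447) to Hoxb1 (96365752 to 96368256). Hoxb2, which acts in the hindbrain and in facial motor neurons, had 70.3, 59.4 and 55.6 CPM/kb in low-NaCl libraries and 67.2, 64.1 and 62.7 in high-NaCl libraries. This gene had the third highest level, but 58.6% of its counted bases lie opposite exons of the noncoding Hoxb3os, so its level may include antisense reads; their part was not tested. Hoxb3 had 2.42, 3.20 and 2.84 CPM/kb on low NaCl and 1.79, 3.93 and 3.02 on high NaCl, from 19.9% of its exonic bases. Hoxb4, known for the expansion of blood stem cells, had 10, 12.2 and 10.4 CPM/kb on low NaCl and 11, 13.6 and 10.9 on high NaCl. None of the 3 genes separated the diets. Hoxb5 had 14.8, 13.6 and 13.9 CPM/kb on low NaCl, all below the 17.7, 15.1 and 16.5 on high NaCl.

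Hoxb6, a gene of thoracic vertebrae and the main Hoxb transcript here, had 166, 140 and 136 CPM/kb in low-NaCl libraries and 178, 174 and 154 in high-NaCl libraries. Hoxb7, the gene whose regulatory sequence marks the ureteric bud, had 48.0, 52.9 and 48.0 CPM/kb on low NaCl, inside the range of 36, 58.3 and 46.2 on high NaCl. Hoxb9, a gene of thoracic identity, had 14.7, 15.4 and 15 CPM/kb on low NaCl and 13.8, 19.1 and 15.3 on high NaCl, from 16.0% of its exonic bases. In Hoxb6, Hoxb7 and Hoxb9 the diets overlapped, and the low-NaCl libraries of Hoxb7 and Hoxb9 lay within the spread of the high-NaCl ones.

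The Hoxc cluster lies on chromosome 15, plus strand, from Hoxc13 (102921103 to 102928814) to Hoxc4 (103018934 to 103036852). Its levels rose and fell along the cluster, with a top at Hoxc10. Hoxc5 had 0.764, 1.13 and 0.717 CPM/kb in low-NaCl libraries and 1.06, 1.03 and 0.887 in high-NaCl libraries. Hoxc6, which acts in motor neurons at forelimb level, had 9.40, 8.03 and 4.38 CPM/kb on low NaCl and 4.76, 5.64 and 7.16 on high NaCl, from only 156 countable bases. Hoxc8 had 2.20, 2.29 and 2.54 CPM/kb on low NaCl, all below the 3.40, 2.95 and 2.66 on high NaCl. The diets overlapped in Hoxc5 and Hoxc6 and lay apart in Hoxc8, a gene of the thoracic skeleton.

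Hoxc9, which sets thoracic motor neuron identity, had 10.3, 11.7 and 10 CPM/kb on low NaCl and 10.4, 9.03 and 10.5 on high NaCl. Hoxc10, a gene of the lumbar level, had 17.1, 21.9 and 17.8 CPM/kb on low NaCl and 20.1, 18.2 and 22.4 on high NaCl. These are overlapping ranges. Hoxc11, from 7, 7 and 10 counted reads in low-NaCl libraries and 20, 21 and 11 in high-NaCl libraries, had 0.190, 0.174 and 0.258 CPM/kb on low NaCl and 0.601, 0.439 and 0.320 on high NaCl. All low-NaCl libraries were below all high-NaCl libraries.

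The Hoxd cluster lies on chromosome 2, plus strand, from Hoxd13 (74668310 to 74671599) to Hoxd1 (74762980 to 74765142). Hoxd1, which acts in pain-sensing neurons of the mouse, had 0.187, 0.134 and 0.203 CPM/kb in low-NaCl libraries and 0.266, 0.175 and 0.143 in high-NaCl libraries. Hoxd4, a gene of neck vertebrae, had 7.25, 8 and 7.45 CPM/kb on low NaCl and 6.40, 11.5 and 7.63 on high NaCl. Both overlapped between the diets. Hoxd9, a gene of the lumbar level, had 198, 160 and 161 CPM/kb on low NaCl, against 266, 162 and 180 on high NaCl. Library 1 was the highest of each diet, and 266 in high-NaCl library 1 was the highest level of any Hox gene in any library. Hoxd10, which acts in hindlimb motor neurons, had 42.4, 53.6 and 43.0 CPM/kb on low NaCl and 40.2, 51.5 and 39.5 on high NaCl. Hoxd11, of the paralog group needed for kidney induction, had 3.54, 4.41 and 3.64 CPM/kb on low NaCl and 3.02, 4.41 and 3.79 on high NaCl. In both of these library 2 was the highest of each diet, and the diets overlapped.

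**Figure D2:**
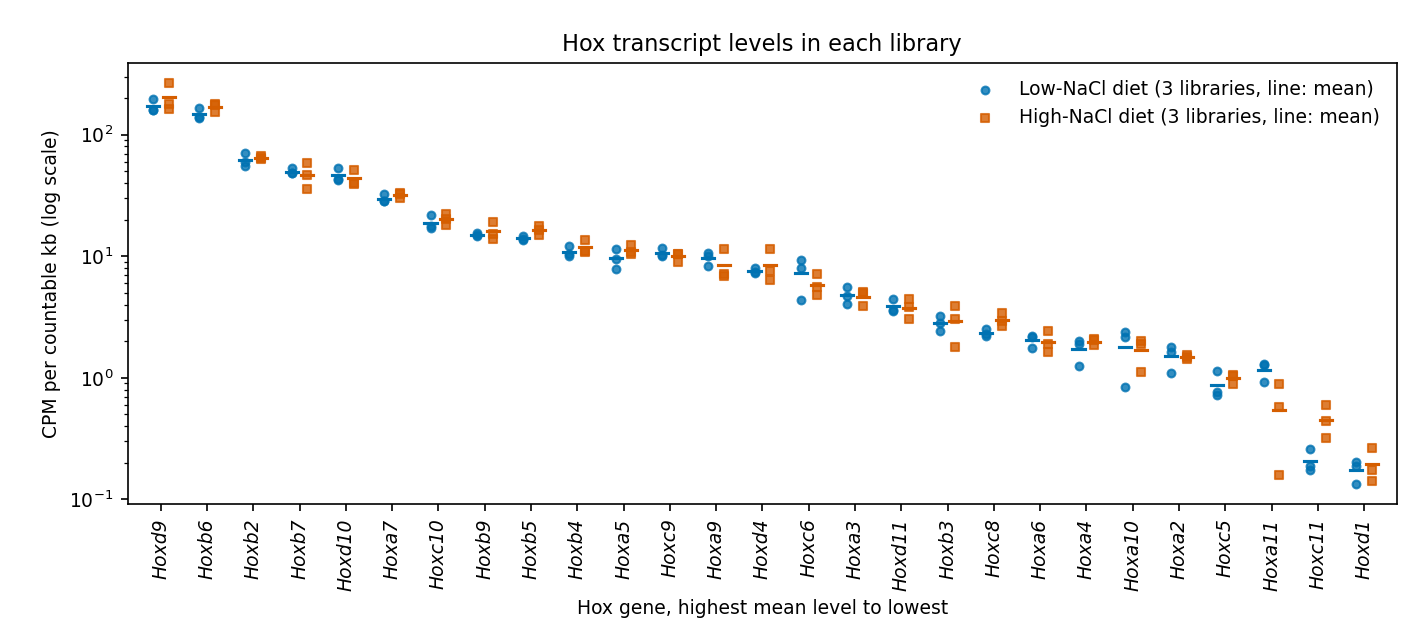
Level of the 27 tested Hox genes in each library (CPM per countable kilobase, log scale), with low-NaCl libraries as circles and high-NaCl libraries as squares, and lines at the means of 3 libraries. The genes span from 188 CPM/kb for Hoxd9 to 0.185 for Hoxd1, and the diets lie apart in Hoxa11, Hoxb5, Hoxc8 and Hoxc11.

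The other 12 genes did not pass the filter, for reasons that differ. For 4 of them, described here, few bases could be counted at all: 13 in Hoxb8 (0.491% of exonic bases), 155 in Hoxc4 (6.04%), 3 in Hoxd8 (0.211%) and 0 in Hoxd3. For Hoxb8, Hoxd8 and Hoxd3 the counts cannot tell whether the gene is expressed. Hoxc4 held 0, 1 and 5 counts on low NaCl and 6, 10 and 6 on high NaCl over its 155 bases, a mean level of 0.706 ± 0.515 CPM/kb (SD, n = 6). Its low-NaCl libraries all lay below its high-NaCl libraries, and the gene was not tested. A transcript ID whose introns match Gm28230, a gene that reads through from Hoxd4 to Hoxd3, has 66.4% of its bases in Hoxd3 exons. It was kept with Gm28230 and held 15, 20 and 17 counts on low NaCl and 5, 40 and 15 on high NaCl over 148 countable bases. A further 7 genes are fully countable and lie at the ends of the clusters. Hoxa13, Hoxb13, Hoxc12 and Hoxc13 had 0 counts in every library, which allows up to 0.0683 to 0.0745 CPM in low-NaCl and 0.0574 to 0.0825 CPM in high-NaCl libraries (3 counts, counting error only). Hoxd12 and Hoxd13 had 0 counts in the low-NaCl libraries, and in the high-NaCl libraries 6 counts in library 2 and 8 in library 3, each from 1 library. Hoxb1, at the head end of its cluster, had 0, 0 and 1 counts on low NaCl and 10, 0 and 3 on high NaCl. Group 12 and 13 genes act in the tail, digits, hair follicles and external genitalia.

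Within genes, the transcript IDs were unevenly covered. In Hoxa7 a single-exon ID at the 3′ end (chromosome 6, 52214492 to 52215288) had a level of 69.3 ± 5.66 CPM/kb on low NaCl and 75.6 ± 3.27 on high NaCl, against 3.64 ± 0.696 and 3.07 ± 0.187 for the spliced ID (SD, n = 3). The ratio was 17.4 to 25.1 over the 6 libraries. Of that 3′ ID, 73.4% lies opposite Hoxaas3 exons, so the level given for Hoxa7 rests largely on bases where strands cannot be told apart. Hoxb3 has IDs that start far and near. The far-start ID had 4.45 ± 0.653 CPM/kb on low NaCl and 4.92 ± 1.97 on high NaCl, and the near-start ID 0.809 ± 0.0751 and 0.442 ± 0.110, a ratio of 5.03 to 19.7 in the 6 libraries. Of Hoxc6, the far-start ID had 19.0 ± 6.79 CPM/kb on low NaCl and 15.1 ± 3.25 on high NaCl over 58 countable bases, and the near-start ID 0.327 ± 0.156 and 0.368 ± 0.319 over 98. Hoxb3 and Hoxc6 thus both had the higher level at the far start in every library. In Hoxa10 the far and near starts were alike, with a ratio between 0.782 and 1.51.

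RNA was also counted over noncoding genes of the clusters. An 85-base ID that coincides with the Mir196b hairpin was matched to Hoxa9, whose annotated exons contain it, and had 90, 140 and 178 counts on low NaCl and 73, 118 and 80 on high NaCl. Its level was 37.7 ± 11.5 CPM/kb on low NaCl and 25.1 ± 1.46 on high NaCl (SD, n = 3), between 2.44 and 5.71 times that of the spliced Hoxa9 ID in the same library. The Mir196a-1 hairpin ID, in the Hoxb cluster, had 200, 262 and 233 counts on low NaCl and 166, 256 and 191 on high NaCl, a level of 53.7 ± 4.88 and 47.5 ± 2.56 CPM/kb. Mir196a-2, in the Hoxc cluster and with the same mature sequence as Mir196a-1, had 0 counts in all libraries, as did Mir10b and Mir615. Mir10a had 3, 6 and 7 counts on low NaCl and 4, 4 and 3 on high NaCl. The 2 loci of the mature miR-196a sequence thus differed, with reads in the Hoxb cluster and none in the Hoxc cluster. These reads count RNA over the hairpin loci and give no level of the mature miRNA.

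The highest level of any ID in the clusters was that of Hoxb5os, an antisense RNA across Hoxb5 and Hoxb6. It had 210 ± 61.0 CPM/kb on low NaCl and 247 ± 37.4 on high NaCl, 12 to 18.9 times the level of Hoxb5. Only 5.27% of the counted bases of Hoxb5 lie opposite it, and none of those of Hoxb6. Gm53, a long noncoding RNA between Hoxb13 and Hoxb9 that was named after its values were seen, had IDs at 73.8 ± 2.30 and 19.3 ± 2.58 CPM/kb on low NaCl and at 68.0 ± 5.80 and 17.2 ± 1.02 on high NaCl. Hoxd3os1, also named after its values were seen, had 58, 55 and 63 counts on low NaCl and 111, 111 and 109 on high NaCl in its higher ID. That level was 5.98 ± 0.532 CPM/kb on low NaCl and 11.6 ± 2.14 on high NaCl. Tested alone, the ID differed by -0.95 ± 0.25 on the log2 scale and missed the threshold (adjusted p = 0.0769, edgeR over all IDs). Hotair, antisense in the Hoxc cluster, had 0 to 4 counts per library, and Hottip, beyond Hoxa13, had 0 in all.

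**Figure D3:**
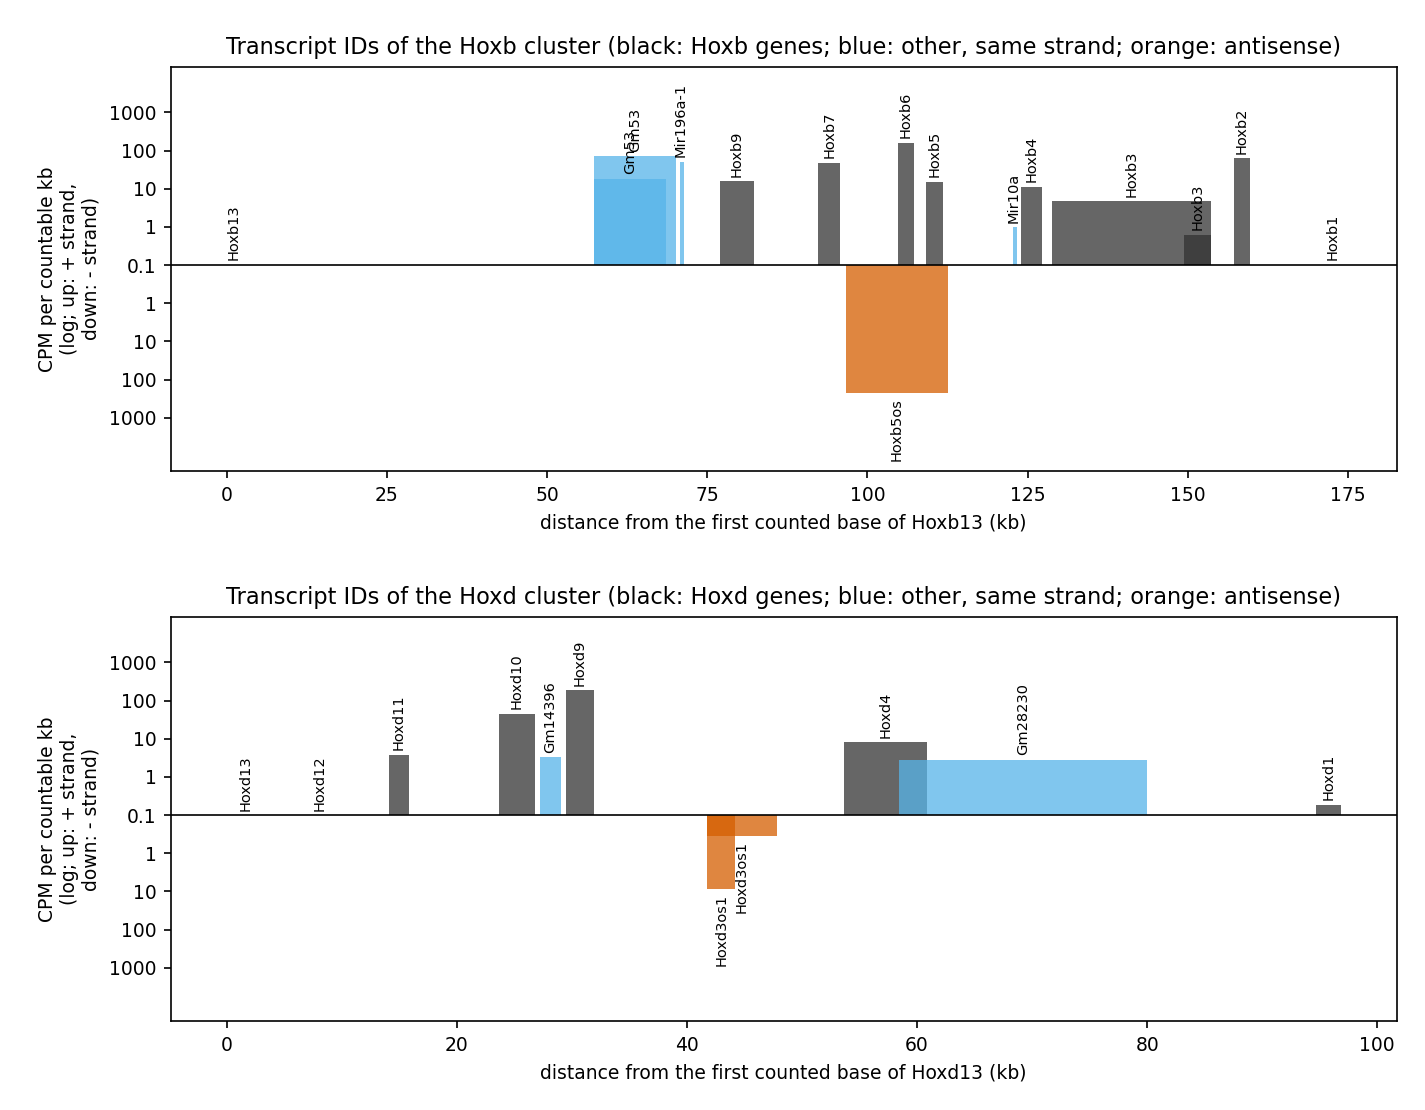
Transcript IDs with at least 50 countable bases along the Hoxb cluster (top) and the Hoxd cluster (bottom): distance in kilobases from Hoxb13 or Hoxd13, and mean level over 6 libraries as bar height (CPM per countable kilobase, log scale, plus strand up and minus strand down, with a floor at 0.1). Hoxb5os at 229 CPM/kb runs opposite the Hoxb6 region, and levels in the Hoxd cluster fall off from Hoxd9 through Hoxd10 and Hoxd11 to Hoxd12 and Hoxd13.

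Between the diets, most Hox genes differed by little relative to their intervals. The median log2 fold change of the 27 genes, low-NaCl minus high-NaCl, was -0.09, against -0.0021 over all tested genes, with 11 above 0 and 16 below. The median size of the log2 fold change was 0.13 for the Hox genes and 0.26 for all genes. The 95% interval lay within a 2-fold difference in either direction for 23 of the 27 genes. Exceptions were Hoxa11, Hoxc6, Hoxc11 and Hoxd1. No Hox gene was higher and none lower at an adjusted p below 0.05, against 1.72% and 1.74% of all tested genes in edgeR. An unadjusted p below 0.05 was reached by 2 Hox genes, against 18.3% of all genes. With DESeq2 none was called, against 7.39% of all genes with an adjusted p, and 1 had an unadjusted p below 0.05. With limma-voom none was called, against 2.91% of all tested genes, and 2 had one. The median by cluster was 0.04 for Hoxa, -0.10 for Hoxb, -0.14 for Hoxc and -0.15 for Hoxd.

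The largest differences belonged to group 11 genes at low levels, and they had opposite signs. Hoxa11 had 1.44, 2 and 1.98 CPM in low-NaCl libraries, against 0.248, 1.38 and 0.905 CPM in high-NaCl libraries. Its log2 fold change was 1.07 ± 0.48 (SE, 95% interval 0.0043 to 2.14), with an adjusted p of 0.271 in edgeR (unadjusted 0.0492). Without high-NaCl library 1, the lowest, it was 0.65, and without high-NaCl library 2 it was 1.64. Without high-NaCl libraries 1 and 3, those over 25% mitochondrial counts, it was 0.38, with the lone high-NaCl library assumed to vary like the others. Hoxc11 had 0.174, 0.159 and 0.236 CPM on low NaCl, against 0.550, 0.401 and 0.293 CPM on high NaCl. Its log2 fold change was -1.11 ± 0.47 (interval -2.16 to -0.07, edgeR adjusted p = 0.243, unadjusted 0.0396). Hoxd11, the other gene of that group, had a log2 fold change of 0.04 ± 0.22 (interval -0.44 to 0.53). None of the 3 passed the test.

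Of the highest genes, Hoxd9 had a log2 fold change of -0.23 ± 0.20 (interval -0.68 to 0.22, edgeR adjusted p = 0.602), and 0.01 without high-NaCl library 1. Hoxb6 had -0.20 ± 0.14 (interval -0.51 to 0.12) and Hoxb2 -0.07 ± 0.13 (interval -0.36 to 0.23). Hoxb7 and Hoxd10 each had 0.08, with intervals of -0.30 to 0.47 and -0.26 to 0.43. The separated genes at moderate level, Hoxb5 and Hoxc8, had -0.22 ± 0.13 and -0.36 ± 0.18 (edgeR adjusted p = 0.398 and 0.336). For the other 17 tested genes the log2 fold change ran from -0.22 (Hoxa5) to 0.31 (Hoxc6).

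The position and cluster shares of the diets overlapped. Paralog groups 9 to 13 gave 43.9, 44.2 and 44.6% of the summed Hox level in low-NaCl libraries and 48.9, 40.9 and 43.3% in high-NaCl libraries, means of 44.2 ± 0.334% and 44.4 ± 4.13% (SD, n = 3). The means differed by less than the SD of the high-NaCl libraries, and high-NaCl library 1, with the highest Hoxd9, had the highest share. Hoxb gave 47.5 ± 0.849% on low NaCl and 47.5 ± 3.50% on high NaCl, and Hoxd 36.4 ± 0.871% and 37.3 ± 4.73%. Hoxa gave 9.83 ± 1.18% and 9.32 ± 1.18%, and Hoxc 6.34 ± 0.659% and 5.88 ± 0.760%. The summed level itself was 635 ± 40.3 CPM/kb on low NaCl and 691 ± 45.7 on high NaCl.

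**Figure D4:**
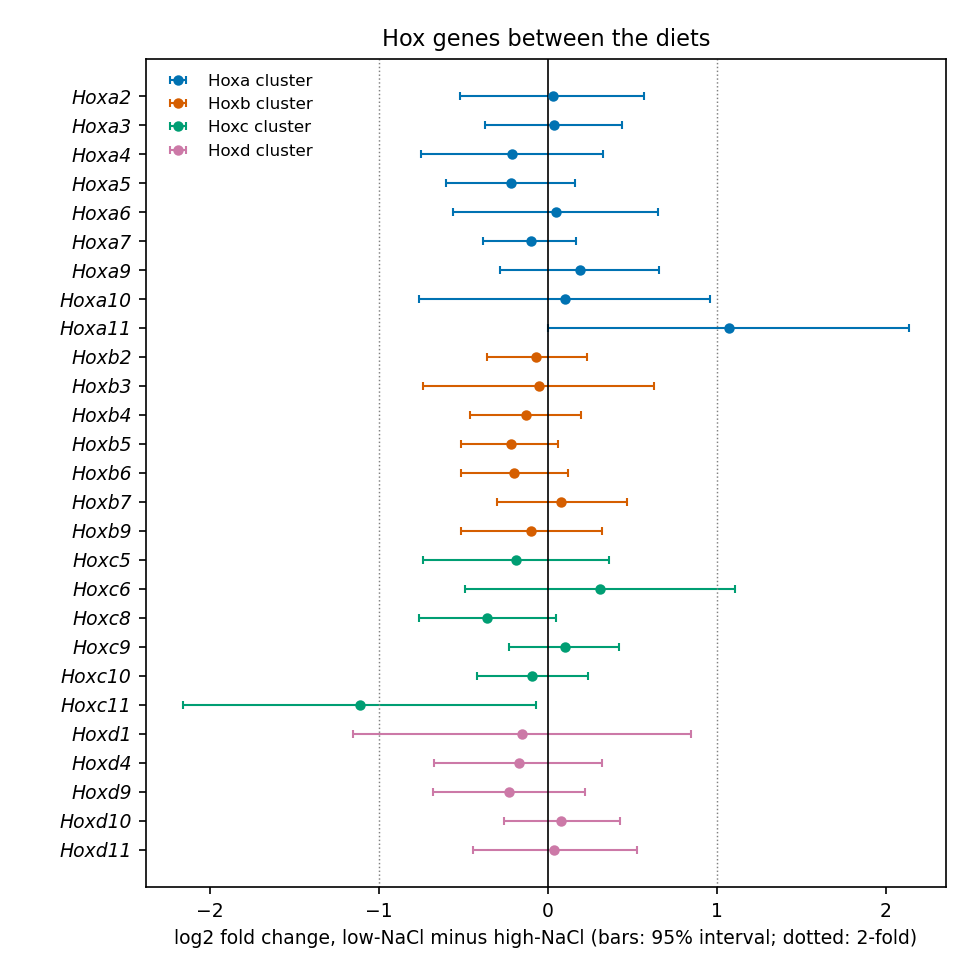
Log2 fold change of each tested Hox gene, low-NaCl minus high-NaCl, with its 95% interval from edgeR, by cluster and paralog group. Of the 27 intervals, 23 lie within a 2-fold difference (dotted lines), and Hoxa11 at 1.07 and Hoxc11 at -1.11 lie farthest out with wide intervals.

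Sequencing lanes were confounded with the diets in part. Libraries 2 and 3 were run in lane 2 for the low-NaCl diet and in lane 3 for the high-NaCl diet. Lane numbers were read from the file headers, and whether equal numbers mean the same run was not checked. Both libraries numbered 1 carry lane number 1, the only lane number found in both diets, with 1 library each. There the log2 difference was 2.54 for Hoxa11, -1.66 for Hoxc11, -0.63 for Hoxc8, -0.26 for Hoxb5, -0.42 for Hoxd9 and -0.10 for Hoxb6. These signs are those of the fit of all libraries, which includes the lane 1 libraries. In Hoxa11, Hoxc11, Hoxc8 and Hoxb5 the diets lay apart, so any low-NaCl library against any high-NaCl one gives that sign. The sign in lane 1 differed from that fit in 8 other genes, whose fitted log2 fold changes lay between -0.21 (Hoxa4) and 0.10 (Hoxa10 and Hoxc9). With lane as a term, where the other libraries give the spread, edgeR called no Hox gene. Over all genes that fit called 1 higher and 2 lower, so the lack of a Hox call there decides little. Its log2 fold changes were 2.53 for Hoxa11 (edgeR adjusted p = 0.219) and -1.64 for Hoxc11 (edgeR adjusted p = 0.467). Libraries held 40101900 to 46861500 counted reads. Mitochondrial transcripts took 20.5 to 21.8% of counts in low-NaCl libraries and 29.9, 21.9 and 28.7% in high-NaCl libraries.

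Markers of collecting duct cells were abundant. Their sums lay apart between the diets for principal cell markers and overlapped for intercalated cell markers. In edgeR 1.72% of all tested genes were called higher on low NaCl and 1.74% lower, the shares beside which the calls below stand. Principal cell markers (8 of 11 tested) summed to 3121 to 4762 CPM on low NaCl and 8776 to 10938 CPM on high NaCl, with Aqp2, Aqp3 and Scnn1g lower on low NaCl. Intercalated cell markers (10 of 10 tested) summed to 4354 to 7673 CPM on low NaCl and 3470 to 4378 CPM on high NaCl, with 5 higher on low NaCl. Rhcg, the highest of that list, was not called, with a log2 fold change of -0.13 ± 0.23. Of 3 tested connecting tubule markers, Calb1 and Trpv5 were lower on low NaCl (list sum 28697 to 31833 CPM on low NaCl and 30107 to 38931 CPM on high NaCl, mostly Klk1). Of the thick limb and distal convoluted tubule markers Slc12a1 was higher on low NaCl (1 of 5 tested, sums of 167 to 195 and 101 to 165 CPM), and of the proximal tubule markers Slc27a2 (1 of 7). The list sums are not divided by countable length, so they understate members with few countable bases and do not rank the lists. The thick limb marker Umod, with 56 such bases, averaged 373 CPM/kb, and the principal cell markers Hsd11b2 and Fxyd4 have 42 and 3. Proximal tubule markers summed to 1765 to 3501 CPM on low NaCl and 982 to 2204 CPM on high NaCl, mostly from Aqp1, and podocyte markers to 5.28 to 38.3 and 18.0 to 37.3 CPM. Stromal markers summed to 7.06 to 8.68 CPM on low NaCl and 4.45 to 8.59 on high NaCl, endothelial markers to 0.519 to 3.53 and 3.59 to 4.07, and immune markers to 0.273 to 0.330 and 0.372 to 0.726. Of these 12 marker calls, those of Calb1 and Hmx2 held when each library was left out in turn and the other 10 did not. With lane as a term none held (edgeR adjusted p = 0.153 to 0.674). That fit called 1 gene higher and 2 lower over all genes, so it cannot decide on these calls. Members without a count were Tbx18, Emcn and Ptprc, and also Gata3, Pdgfrb, Cd68 and Pecam1, which have 3, 19, 27 and 0 countable bases and so could not be measured. In bulk RNA fewer cells of a type and less RNA per cell cannot be told apart, and the part of cell make-up in the Hox values was not tested.

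Partners of Hox proteins were measured alongside. Proteins of the TALE class (Pbx, Meis, Pknox and Tgif) bind DNA together with Hox proteins or compete for such sites, and 0 of the 6 tested genes of 11 passed in either direction (median log2 fold change -0.05, 1 with an unadjusted p below 0.05 in edgeR). Over all tested genes 3.46% passed and 18.3% had an unadjusted p below 0.05, and the count in this list is near those shares. Pbx2, the highest, had 72.5, 74.5 and 82.1 CPM on low NaCl and 72.5, 86.5 and 73.3 CPM on high NaCl, with overlapping diets. Tgif1 averaged 3.02 CPM/kb on both diets. Tgif2 had 0.596, 0.842 and 0.967 CPM on low NaCl and 1.71, 1.80 and 1.62 CPM on high NaCl, and its log2 fold change of -1.09 ± 0.29 missed the threshold (edgeR adjusted p = 0.0712). DESeq2, which called 7.39% of all genes, called Tgif2 and no other gene of the list. Pknox1 averaged 0.683 ± 0.230 and 0.823 ± 0.775 CPM/kb. Meis1 and Meis2, named after their values were seen, stayed at or below 0.165 CPM in every library. Pbx2 was thus by level the leading gene of the list, and the Meis genes with countable bases were close to 0.

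Among Polycomb genes, which keep silent Hox genes repressed, 0 of 11 tested genes of 20 passed (median log2 fold change -0.16, 3 with an unadjusted p below 0.05 in edgeR, against 3.46% and 18.3% of all genes). Cbx6, a chromobox subunit, was the highest with 58.9 ± 0.408 CPM/kb on low NaCl and 82.1 ± 7.32 on high NaCl, a log2 fold change of -0.48 ± 0.13 (edgeR adjusted p = 0.0763). The diets lay apart in Cbx6, which DESeq2 called as the only gene of the list, against 7.39% of all genes. Ezh1, the methyltransferase of resting cells, averaged 45.6 ± 8.17 and 50.2 ± 2.65 CPM/kb, the ubiquitin ligase Ring1 39.9 ± 4.01 and 53.5 ± 10.8, and Eed, a core subunit with Ezh1, 9.47 ± 1.14 and 10.6 ± 1.36. Among Trithorax genes and H3K27 demethylases, which oppose that repression, 0 of 8 tested genes of 13 passed (median log2 fold change 0.08, 1 with an unadjusted p below 0.05 in edgeR, 0 called by DESeq2, against 3.46%, 18.3% and 7.39% of all genes). Wdr5, a core subunit of the H3K4 methyltransferase complexes, averaged 54.0 ± 0.614 CPM/kb on low NaCl and 52.7 ± 3.89 on high NaCl. Psip1 averaged 5.82 ± 0.185 and 7.23 ± 0.978 CPM/kb, the methyltransferase Ash1l 6.47 ± 0.624 and 5.94 ± 0.573, and Ash2l, a partner of Wdr5, 5.14 ± 0.515 and 4.73 ± 0.205.

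Genes and noncoding RNAs at the edges of or inside the clusters gave 0 calls among 9 tested of 29 (median log2 fold change 0.05, 2 with an unadjusted p below 0.05 in edgeR, 0 called by DESeq2, near the 3.46%, 18.3% and 7.39% of all genes). Besides Hoxb5os these were led by Hibadh, an enzyme of valine breakdown near the Hoxa cluster, with 200 ± 19.4 CPM/kb on low NaCl and 193 ± 12 on high NaCl. Mtx2, a mitochondrial import protein near the Hoxd cluster, had 138 ± 7.62 and 117 ± 22.5 CPM/kb, and Calcoco1, near the Hoxc cluster, had 45.7 ± 3.44 and 58.9 ± 4.39. Evx1 and Evx2, the homeobox genes beyond Hoxa13 and Hoxd13, had 0 counts. Both lie on the high-number side of their cluster, beside Hoxa13 with 0 counts and Hoxd13 with 8 counts in 1 library.

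A list of 11 genes of early mouse kidney development holds genes that depend on paralog group 11 there, such as Six2 and Gdnf, and genes of the nephric duct and ureteric bud that are not established Hox targets. Of these 5 were tested and 0 passed (median log2 fold change -0.46, 3 with an unadjusted p below 0.05 in edgeR, against 3.46% and 18.3% of all genes). Pax2, a regulator of the nephric lineage, averaged 25.4 ± 3.72 CPM/kb on low NaCl and 36.9 ± 6.81 on high NaCl (log2 fold change -0.54 ± 0.17, edgeR adjusted p = 0.134). Emx2, a homeobox gene of the ureteric bud, averaged 18.6 ± 2.01 and 18.6 ± 2.12 CPM/kb, and Wnt9b, the inducing signal of the bud, 3.58 ± 0.557 and 4.91 ± 0.326. Lhx1 had 3.16, 3.39 and 4.34 CPM on low NaCl and 6.52, 8.03 and 5.80 CPM on high NaCl, all low-NaCl libraries below all high-NaCl libraries. Its log2 fold change was -0.90 ± 0.21, with an edgeR adjusted p of 0.0526, just above the threshold, and DESeq2 called it, against 7.39% of all genes. With limma-voom no gene was called in any of the 5 lists. Of the 6 ParaHox genes (Cdx, Gsx and Pdx), which descend with the Hox genes from a common cluster, none was tested, and a single read of Cdx4 in high-NaCl library 2 was the only one counted.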

How the data were processed

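The members and gene lists were chosen with earlier results of these data known. The authors deposited raw read counts for each library, made, per the file headers, with featureCounts 1.5.0-p3 over exons of UCSC transcripts of build mm10, with no strand or overlap option, so by default strand was ignored and reads over more than 1 transcript were not counted. FastQC, Subread and edgeR are named, without versions, in the submitters' processing notes. The aligner is not given in the sources used here.

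Each of 59121 transcript IDs was matched to a gene of GENCODE vM21 (GRCm38) by identical introns (41510 IDs, 72.22% of counts) or else by at least 50% of its bases on the same strand (11061, 22.22%). The 6550 unmatched IDs (5.57%) entered library sizes only. Counts were summed to 24938 genes, and filterByExpr left 10567. The diets were compared with edgeR 4.0.16 in R 4.3.3 (TMM, glmQLFit with robust estimation, glmQLFTest, no covariate), with Benjamini-Hochberg adjustment over all tested genes. The SE is the log2 fold change divided by the root of the F statistic. The biological coefficient of variation was 21.6%. Interval and floor settings were 95% and 3 counts. Other fits used DESeq2 1.42.0 and limma 3.58.1, and tables were made in Python 3.11.15.

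On simulated counts of 10387 genes for this comparison, 56% of genes changed 2-fold and 100% of those changed 4-fold were recovered, and 3.7% of 162 calls were false. Only genes above a minimum mean count were changed, all genes had the same dispersion, and no lane effect was simulated. These rates thus do not cover Hox genes at low counts such as Hoxc11 and Hoxd1, or the lanes of this design. No library was a duplicate of another of its diet (chi-square over degrees of freedom from 38.1 to 244 per pair). Each library held 40101899 to 46861531 counts, which with the countable length sets the precision of a gene.

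Every Hox gene that passed the filter is named. Values of 1 Hox gene that did not pass and of 1 TALE cofactor are not reported here. Of the lists of TALE cofactors, Polycomb genes, Trithorax genes and H3K27 demethylases, genes beside or inside the clusters, early kidney genes and ParaHox genes, called members and up to 4 by level are named. Alternatives were scaling by DESeq2's size factors, by upper quartiles or by totals, dropping the low-count filter or keeping genes with at least 1 CPM in 3 libraries, DESeq2, limma-voom, no robust estimation, replicate and lane terms, identical introns only, single IDs, and leaving out each library or those over 25% mitochondrial counts. The Mir196b hairpin and single-exon ID alternatives were chosen after seeing the data.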

Additional observations from a re-analysis of the deposited data

How the results depend on the processing

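No Hox gene was called under any of 20 alternatives, and the lowest adjusted p was 0.0752 (Hoxa11, edgeR with the replicate block). Deviations from the diet mean had r = 0.194, 0.273 and -0.0731 between libraries of equal number (1, 2 and 3). Libraries of unlike number had r from -0.285 to 0.102, so numbers 1 and 2 lay above that range and number 3 within it. Deviations sum to 0 within a diet, so these r values constrain each other and cannot settle whether equal numbers are pairs. Libraries of equal number were not taken as pairs, although both libraries numbered 1 carry lane number 1. With the replicate block 467 genes of the whole table were higher and 447 lower on low NaCl, against 182 and 184 without it. The counts over all genes were 81 and 55 with total-count scaling, 397 and 422 with DESeq2, 1 and 2 with a lane term, and 31 and 92 without libraries over 25% mitochondrial counts, and 281 were lower with no filter. Leaving out 1 library gave 34 to 292 higher and 36 to 255 lower. The higher ones numbered 292, 39 and 59 when low-NaCl library 1, 2 or 3 was left out, and 67 and 34 when high-NaCl library 1 or 3 was. The lower ones numbered 36 and 76 in the absence of low-NaCl library 2 or 3, and 95 and 53 in that of high-NaCl library 1 or 3. The share of paralog groups 9 to 13 was 50.4% by CPM with no division by length, where Hoxa gave 11.2%, Hoxb 39.3% and Hoxd 43.6%, so that Hoxd was above Hoxb. The Hoxa share was 5.49% with identical introns only or without the single-exon IDs, and the Hoxc share 5.42% by the authors' Length column and 5.34% with genes at least 50% countable.

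The sign of the log2 fold change of uncalled Hox genes near 0 turned in 46 of 511 values. With a lane term it turned for Hoxa2 (-0.43), Hoxa4 (0.11), Hoxa10 (-0.40), Hoxb2 (0.06), Hoxb3 (0.44), Hoxb9 (0.10), Hoxc9 (-0.01) and Hoxd4 (0.18). Without libraries over 25% mitochondrial counts it turned for Hoxa2 (-0.05), Hoxa3 (-0.10), Hoxa9 (-0.25), Hoxa10 (-0.18), Hoxb7 (-0.25), Hoxc10 (0.04), Hoxd9 (0.08), Hoxd10 (-0.17) and Hoxd11 (-0.20). Total-count scaling turned Hoxb2 (0.02), Hoxb3 (0.0035) and Hoxc10 (0.01), limma-voom turned Hoxa2 (-0.0033), the replicate block turned Hoxb3 (0.0001), and identical introns only turned Hoxa7 (0.25), then without its 3′ ID. Leaving out 1 library gave ranges across 0 for Hoxa2 (-0.11 to 0.20), Hoxa3 (-0.08 to 0.13), Hoxa6 (-0.08 to 0.22), Hoxa10 (-0.16 to 0.43), Hoxb2 (-0.18 to 0.01), Hoxb3 (-0.31 to 0.23), Hoxb7 (-0.08 to 0.27), Hoxb9 (-0.20 to 0.05), Hoxd1 (-0.32 to 0.12), Hoxd4 (-0.35 to 0.11), Hoxd9 (-0.37 to 0.01), Hoxd10 (-0.03 to 0.22) and Hoxd11 (-0.09 to 0.18). Beyond Hoxa7, the cause was not tested. Low counts in group 11 genes and few countable bases in Hoxb3, Hoxb9 and Hoxc6 limit their precision.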
